A study of Rattus norvegicus with 9 samples.

Results

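The 50 genes described here encode the microtubule motors and tubulins of axonal transport, out of 10411 genes measured in rat dorsal root ganglia. They are the genes whose annotated symbol begins with Kif, Klc, Dync, Dynl, Dctn, Tuba or Tubb, taken from probe sets that carry a single symbol. 66 probe sets met that description, and the probe set with the highest mean signal over all arrays stood for its gene. 36 of the 50 genes passed a filter on low signal and were tested with 6989 genes in all: 10 with a Kif symbol (8 kinesins, the kinesin-2 subunit Kifap3 and the kinesin-binding Kifbp), 3 kinesin light chains, 11 dynein subunits, 5 dynactin subunits and 7 tubulins.

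Sensory neurons of the dorsal root ganglion keep their cell bodies in the ganglion and send axons to skin, muscle and spinal cord. Microtubules, built from pairs of alpha- and beta-tubulin, are the tracks along those axons. Kinesins carry vesicles, mitochondria and cytoskeletal proteins away from the cell body, and cytoplasmic dynein, working with dynactin, carries signalling endosomes and spent organelles back. Slowed axonal transport is a long-studied feature of diabetic neuropathy, and the long peripheral axons depend on it.

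The ganglia were the lumbar L4 to L6 dorsal root ganglia of Sprague-Dawley rats. Normal rats given vehicle had no streptozotocin. A second group was given an injection of streptozotocin (STZ), which kills pancreatic beta cells and so makes rats diabetic, and received vehicle. The remaining group was injected with STZ and given FK1706, a ligand of the FK506-binding immunophilins. Ganglia were collected after 1, 2 and 3 weeks of dosing, and the RNA of 5 rats was pooled in equal amounts for each of the 9 arrays. Each group therefore had 1 pool per week, the 3 pools of a group differ in week, and the p-values measure the spread between pools and not between rats. The rats' age and sex, their blood glucose and the doses are not given in the sources used here.

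Trimmed mean signal ran from 361 in the FK1706 pool of week 3 to 534 in the normal pool of week 1, and every pair of arrays correlated at 0.970 to 0.981. Signal was put on a common scale between arrays, so a log2 difference here is relative to the typical gene. The 10 neuron markers (Uchl1, Prph, Nefl, Nefm, Nefh, Snap25, Rbfox3, Isl1, Avil and Gap43) were all above the filter. Their summed signal was 63304 to 64742 in normal pools, 63410 to 65167 in STZ pools given vehicle and 63231 to 66476 in FK1706 pools, and none of the 10 passed the test between STZ and normal. Summed Schwann cell markers, 7 of 8 measured, were 39541 to 40219 in normal pools against 35338 to 39525 and 37034 to 37991, and summed fibroblast markers, 6 of 6, were 24925 to 33845 against 20217 to 25127 and 22337 to 26819. Of the fibroblast markers, 3 were called lower in STZ than in normal pools (limma), and of the Schwann cell markers 0 were called with 2 lower at an unadjusted p under 0.05. No measured gene of the marker lists was at 0 in all 9 pools. All 7 measured skeletal muscle markers were lower in STZ than in normal pools, with a median log2 difference of -0.47 and 0 at an unadjusted p under 0.05 (limma). All 7 were also lower in FK1706 than in normal pools, with a median of -0.63. There 0 were called and 3 had an unadjusted p under 0.05, against 8.18% of all genes. The part of these marker levels in the motor gene values was not tested. In whole ganglia, fewer cells of a type and less RNA per cell cannot be told apart.

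No motor or tubulin gene passed the test in any of the 3 group comparisons or the 2 week comparisons. The test was limma's moderated test with Benjamini-Hochberg adjustment over all 6989 genes, at an adjusted p under 0.05. Between STZ and normal pools, both given vehicle, 0 of 36 genes passed where 0.1% of all genes did, and 2 of 36 had an unadjusted p under 0.05 where 8.63% of all genes did. Between FK1706 and vehicle in STZ rats 0 of 36 passed, as did 0% of all genes, and 0 of 36 against 3.13% had an unadjusted p under 0.05. Between FK1706-treated STZ rats and normal rats 0 of 36 passed where 0.0143% of all genes did, and 4 of 36 against 8.18% had an unadjusted p under 0.05. These 3 comparisons share arrays with each other, so they are not separate evidence.

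The signal of these genes varied little between pools. Over the 9 pools the range of a gene's log2 signal had a median of 0.38 in the 36 genes, between 0.14 and 0.80, where all tested genes had a median of 0.46. None of the 36 ranged over more than 1 log2 unit, against 4.62% of all tested genes. The standard deviation within groups had a median of 0.114 against 0.148. The 36 genes were also bright, with a median log2 signal of 11.09 against 8.92 for all tested genes, and spread and level were not separated here. Their 95% intervals for the STZ-normal difference all lay inside a 1.5-fold change in either direction, as they did for 90% of all genes. All 36 did so for FK1706 against vehicle in STZ rats too, against 92.6% of all genes. For FK1706 against normal, 35 of 36 intervals lay inside it, against 89.5% of all genes, with Tuba8 as the exception. These intervals are not adjusted for the number of genes.

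**Figure D1:**
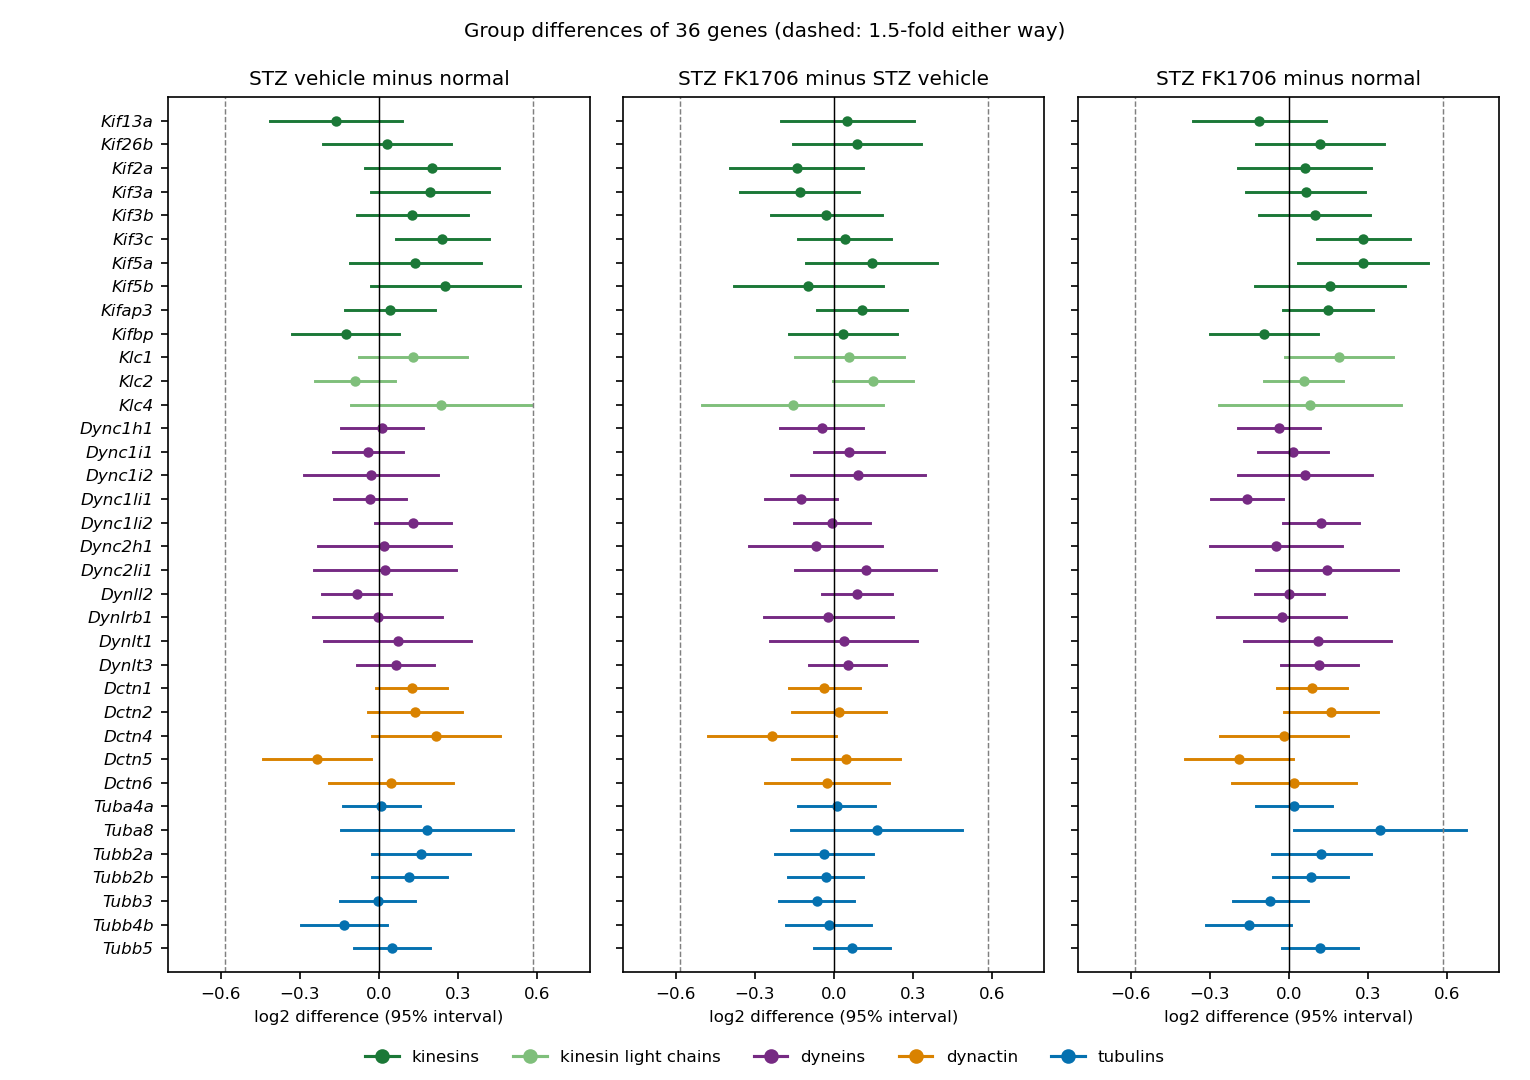
Log2 difference with its 95% interval for each of the 36 tested genes, in 3 panels for STZ against normal, FK1706 against vehicle in STZ rats, and FK1706-treated STZ rats against normal. Dashed lines mark a 1.5-fold change, which the intervals of all genes but Tuba8 in the FK1706-normal panel stay inside, and Kif3c lies at 0.24 and 0.28 above normal.

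Kinesin-1 carries vesicles and mitochondria out along the axon, and it consists of 2 heavy chains from the Kif5 genes with light chains from the Klc genes that bind cargo. Kif5a, the heavy chain most restricted to neurons, measured 11.08, 10.72 and 10.99 log2 units in the normal pools of weeks 1, 2 and 3. It measured 10.98, 10.88 and 11.35 in STZ pools given vehicle and 11.14, 11.31 and 11.18 in FK1706 pools. The FK1706 pools were all above the normal pools, and the STZ pools given vehicle overlapped both. The FK1706-normal difference of 0.28 (SE 0.113) had an adjusted p of 0.586 in limma after Benjamini-Hochberg adjustment, and a second probe set for the gene gave 0.06 (SE 0.072). Kif5b, the ubiquitous heavy chain, measured 11.19, 10.63 and 11.10 in normal pools against 11.20, 11.21 and 11.28 in STZ pools given vehicle. The difference of 0.25 (SE 0.129, limma adjusted p 0.593) rested mostly on the low normal pool of week 2, and it was 0.10 (SE 0.125) without that pool. In the FK1706 pools Kif5b measured 10.87, 11.09 and 11.44, a span that takes in all 3 STZ pools given vehicle.

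The light chains differed in sign, and none passed the test. Klc1 measured 12.66, 12.25 and 12.37 in normal pools against 12.51, 12.55 and 12.62 in STZ pools given vehicle, and 12.58, 12.73 and 12.55 with FK1706. Its STZ-normal difference was 0.13 (SE 0.094), and it was 0.02 without the normal pool of week 2. The other 2 Klc1 probe sets past the filter gave 0.02 (SE 0.070) and -0.22 (SE 0.124). For FK1706 against normal they gave 0.05 (SE 0.070) and -0.40 (SE 0.124), where the brightest gave 0.19 (SE 0.094), so the sign depends on the probe set. Klc2 differed by -0.09 between STZ pools given vehicle and normal ones (SE 0.069), and was 0.15 higher with FK1706 than with vehicle (SE 0.069, limma adjusted p 0.999). Klc4 measured 9.32 in the STZ pool of week 3 given vehicle and 8.60 to 8.86 in the other 8 pools.

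Kinesin-2 is made of Kif3a paired with Kif3b or Kif3c, with Kifap3 as the subunit that binds cargo, and it also works in cilia. Kif3c showed the smallest adjusted p of the 36 genes in STZ against normal and in FK1706 against normal. It measured 10.38, 10.21 and 10.53 in normal pools, 10.64, 10.59 and 10.62 in STZ pools given vehicle, and 10.71, 10.62 and 10.65 in FK1706 pools. The highest normal pool was below the lowest pool of either STZ group, and both STZ groups varied less than the normal one, with SDs of 0.027 and 0.047 against 0.165 (n = 3 pools each). Kif3c was 1.18-fold higher in STZ than in normal pools, a log2 difference of 0.24 (SE 0.080, limma adjusted p 0.457), and 1.22-fold higher with FK1706 than in normal pools, a log2 difference of 0.28 (SE 0.080, limma adjusted p 0.336). Without the normal pool of week 2 the differences were 0.17 and 0.22. A second probe set for Kif3c gave 0.10 (SE 0.092) for STZ against normal and -0.16 (SE 0.092) for FK1706 against normal, so the sign of the latter depends on the probe set.

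Kif3a measured 8.40, 8.42 and 8.73 in normal pools against 8.58, 8.74 and 8.82 in STZ pools given vehicle, and the STZ-normal difference was 0.19 (SE 0.102). It was higher in STZ than in normal rats at each of the 3 weeks, but the groups overlapped. Kif3b was 0.13 higher (SE 0.096) and Kifap3 0.04 higher (SE 0.078). Kifap3 has a second probe set that gave a STZ-normal difference of 0.27 (SE 0.082), where the brighter probe set gave 0.04. Both probe sets gave a positive sign, at different sizes.

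Outside these complexes, Kif2a, which removes tubulin from microtubule ends and limits branching, measured 9.12, 8.68 and 8.78 in normal pools, 9.04, 8.98 and 9.16 in STZ pools given vehicle and 9.01, 8.95 and 8.81 with FK1706. Its STZ-normal difference of 0.20 (SE 0.115) came with overlapping groups, and it was 0.13 without the normal pool of week 2. Kif13a, a kinesin-3 of endosome traffic, differed by -0.16 in STZ pools against normal ones (SE 0.115), with all 3 STZ pools below all 3 normal pools, 8.20 to 8.29 against 8.36 to 8.42. Kifbp, which binds kinesins and restrains their motor domains, differed by -0.13 (SE 0.093), and by -0.00 without the normal pool of week 2, where it was highest at 10.62. Kif26b, an atypical kinesin, differed by 0.03 (SE 0.111).

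**Figure D2:**
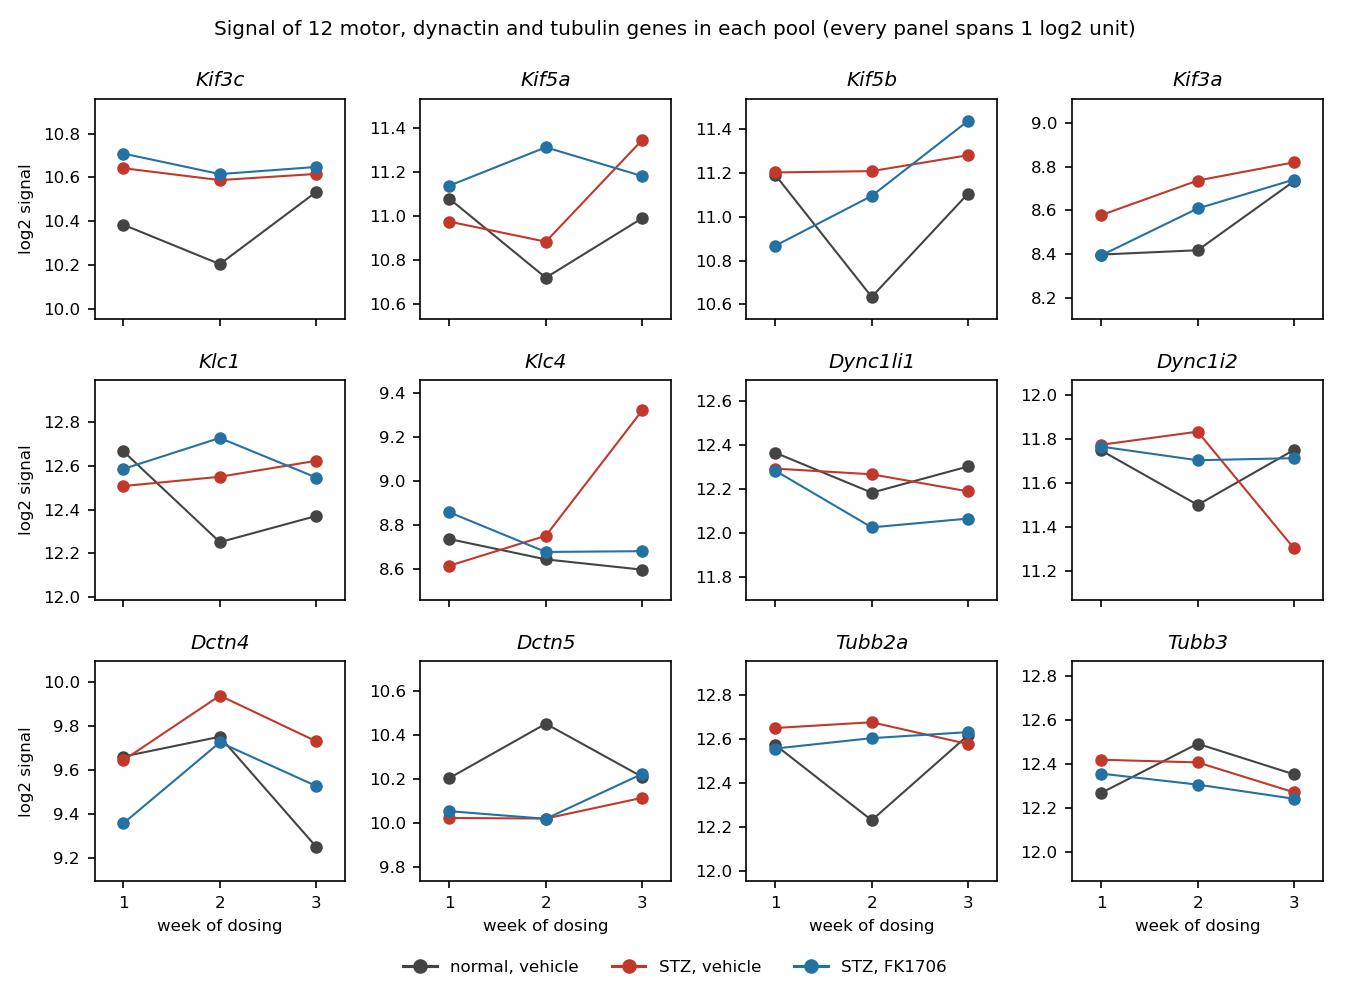
Log2 signal at weeks 1, 2 and 3 for 12 genes, 1 point for each pool, joined within the normal vehicle, STZ vehicle and STZ FK1706 groups, with every panel spanning 1 log2 unit. Kif3c in both STZ groups lies above the normal pools at all weeks, the Klc4 point of the STZ pool of week 3 stands at 9.32, and the lowest normal pool of Kif5b, Klc1 and Tubb2a is that of week 2.

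Cytoplasmic dynein is the main motor toward the cell body. Dync1h1, its heavy chain with the motor domain, measured 11.93, 11.98 and 11.94 in normal pools, 12.02, 12.01 and 11.85 in STZ pools given vehicle and 12.00, 11.79 and 11.95 with FK1706. All 3 groups overlapped and the STZ-normal difference was 0.01 (SE 0.071). The intermediate chains, which bind dynactin, differed by -0.04 for Dync1i1 (SE 0.061) and -0.03 for Dync1i2 (SE 0.116). Dync1i2 measured 11.30 in the STZ pool of week 3, the lowest of its 9 values, with the next lowest at 11.50 in the normal pool of week 2.

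The light intermediate chains bind dynein's cargo adaptors. Dync1li1 measured 12.36, 12.18 and 12.30 in normal pools, 12.29, 12.27 and 12.19 in STZ pools given vehicle and 12.28, 12.02 and 12.06 with FK1706. Its 2 lowest values were the FK1706 pools of weeks 2 and 3, and its FK1706-normal difference was -0.16 (SE 0.063, limma adjusted p 0.568). A second probe set gave 0.05 (SE 0.135) for the same difference, of the other sign. Dync1li2, its paralog, was 0.13 higher in STZ than in normal pools (SE 0.065), and 0.19 higher without the normal pool of week 2. Of the light chains, which join cargo or stabilise the complex, Dynll2 differed by -0.08, Dynlrb1 by -0.00, Dynlt1 by 0.07 and Dynlt3 by 0.06 between STZ and normal pools. A second Dynll2 probe set gave 0.08 (SE 0.098), of the other sign. Without the normal pool of week 2, which gave 11.54 for Dynlrb1 against 11.93 and 12.13 in the other normal pools, Dynlrb1 differed by -0.19 (SE 0.071, limma adjusted p 0.668). Dync2h1 and Dync2li1, of the dynein that works in cilia, both differed by 0.02.

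Dynactin links dynein to cargo and keeps it moving. Dctn1, the p150 subunit that binds microtubules and dynein, measured 11.44, 11.59 and 11.46 in normal pools against 11.63, 11.62 and 11.61 in STZ pools given vehicle. All 3 STZ pools were above all 3 normal pools, by 0.12 between group means (SE 0.061, limma adjusted p 0.578). Dctn2, dynamitin, was 0.14 higher (SE 0.081), and also had all STZ pools given vehicle above all normal ones, 10.26 to 10.36 against 10.11 to 10.22. Dctn5, a pointed-end subunit, ran the other way. It measured 10.20, 10.45 and 10.21 in normal pools, 10.02, 10.02 and 10.11 in STZ pools given vehicle and 10.05, 10.02 and 10.22 with FK1706, a STZ-normal difference of -0.24 (SE 0.093, limma adjusted p 0.513). Without the normal pool of week 2 it was -0.13. Dctn6, the other pointed-end subunit, differed by 0.05 (SE 0.107). Dctn4, which sits at the same end, was 0.22 higher in STZ pools (SE 0.111) and differed by -0.23 between FK1706 and vehicle in STZ rats (SE 0.111, limma adjusted p 0.999), but its second probe set gave 0.00 for STZ against normal (SE 0.125).

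Tubulins form the microtubule itself. Tubb3, the beta-tubulin of neurons, measured 12.27, 12.49 and 12.35 in normal pools, 12.42, 12.41 and 12.27 in STZ pools given vehicle and 12.36, 12.31 and 12.24 with FK1706. Its STZ-normal difference was -0.01 (SE 0.065). Tubb2a, a beta-tubulin abundant in neurons, measured 12.57, 12.23 and 12.62 in normal pools and 12.56 to 12.68 in the 6 STZ pools, and its STZ-normal difference of 0.16 (SE 0.085) was 0.03 without the normal pool of week 2. Tubb2b was 0.12 higher (SE 0.064) and Tubb5 0.05 higher (SE 0.066), and without that pool they were 0.05 and 0.02 higher. Tubb4b differed by -0.13 between STZ and normal pools (SE 0.073, limma adjusted p 0.617), with normal pools at 12.76 to 12.78 above STZ pools at 12.53 to 12.75. Of the alpha-tubulins, Tuba4a differed by 0.01 (SE 0.066). Tuba8 sat just above the filter at a mean of 7.37, with STZ pools given vehicle at 7.26 to 7.45 and FK1706 pools at 7.43 to 7.73 against normal pools at 7.15 to 7.23. Group means were 7.19 in normal, 7.38 in STZ vehicle and 7.54 in FK1706 pools, so it passed the filter of 7.36 through the groups in which it was high. Its FK1706-normal difference of 0.35 (SE 0.148) and its place in the counts of genes without overlap are therefore descriptions and support nothing. Alpha-tubulins Tuba1a, Tuba1b and Tuba1c share a probe set with several symbols, as Dynll1 and Dctn3 do with other genes, and were not used. Kif5c, Kif1a, Kif21a and Tubb4a had no probe set carrying their symbol alone here.

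Counted without reference to the test, 5 of 36 genes had all STZ pools given vehicle above all normal pools, against 5.84% of all genes, and 3 had them all below, against 6.95%. The 5 were Dctn1, Dctn2, Kif3c, Kif5b and Tuba8, and the 3 were Dctn5, Kif13a and Tubb4b. FK1706 against normal gave 4 above, against 5.54%, and 1 below, against 6.08%. FK1706 against vehicle in STZ rats gave 0 above, against 3.25%, and 0 below, against 3.32%.

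By class, the median STZ-normal difference was 0.13 in the 10 genes with a Kif symbol, Kifap3 and Kifbp included, with 8 of 10 higher, and 0.13 in the light chains, 0.12 in dynactin, 0.05 in tubulins and 0.01 in dyneins, with 6 of 11 higher. Over all 36 genes it was 0.05 with 25 higher and 11 lower, and over all tested genes it was 0.00 with 50.2% higher. Leaving out 1 array or 1 week at a time, the median of the Kif genes ran from 0.05, without the STZ pool of week 3 given vehicle, to 0.21, without the normal pool of week 1. The light chain median ran from -0.01 to 0.27, the dynactin median from 0.08 to 0.15, the tubulin median from 0.03 to 0.11 and the dynein median from -0.04 to 0.05. FK1706 against vehicle in STZ rats gave class medians between -0.03 and 0.06. In log2 of the deposited signal, where the median of all genes itself moved by -0.10 between STZ and normal, the median of the Kif genes was 0.03 with 6 of 10 higher and the dynein median was -0.10 with 1 of 11 higher, so both directions are relative to the typical gene.

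The normal pool of week 2 was the lowest of the 9 pools for 10 of 36 genes, 27.8%, against 15.4% of all tested genes, and the highest for 4, 11.1% against 17.8%. Its median deviation from the gene's mean was -0.08 in the 36 genes and 0.01 in all tested genes. That pool also held the highest summed signal of skeletal muscle markers, 6035 against 2243 to 3945 in the other 8 pools. Of the 8 muscle markers 7 were measured, all above the filter on low signal, and none was at 0 in all 9 pools. The part of muscle RNA in the low motor gene values of that pool was not tested.

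**Figure D3:**
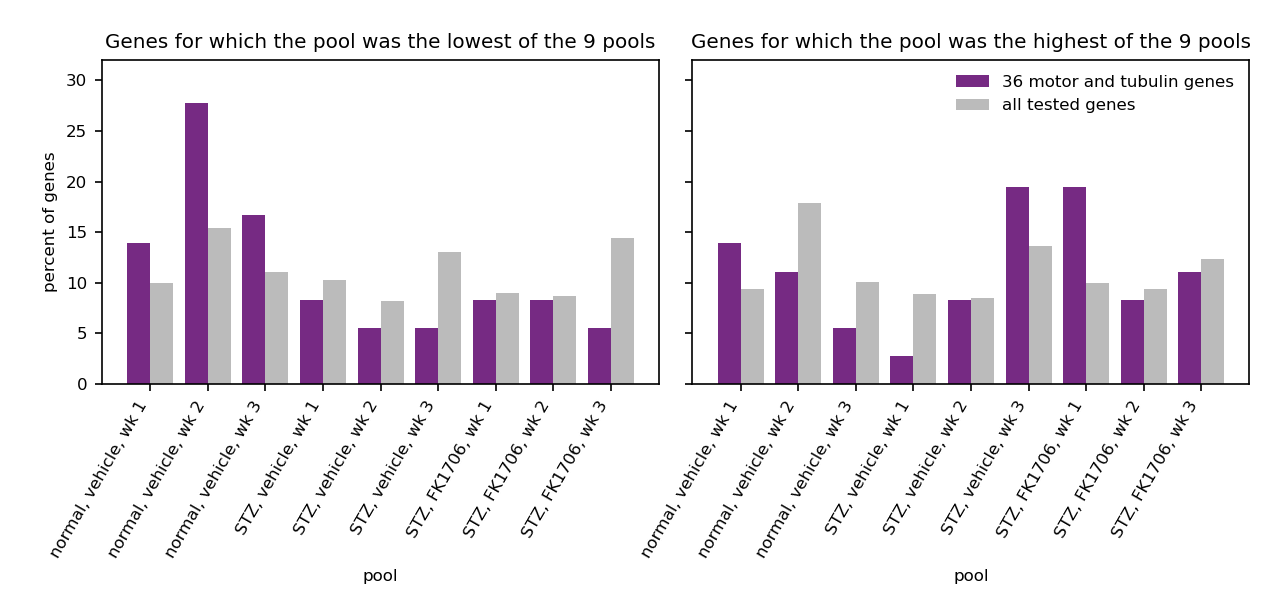
Percent of genes for which each of the 9 pools was the lowest (left) and the highest (right), for the 36 motor and tubulin genes beside all 6989 tested genes. The normal pool of week 2 was lowest for 27.8% of the 36 genes and 15.4% of all genes.

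**Figure D4:**
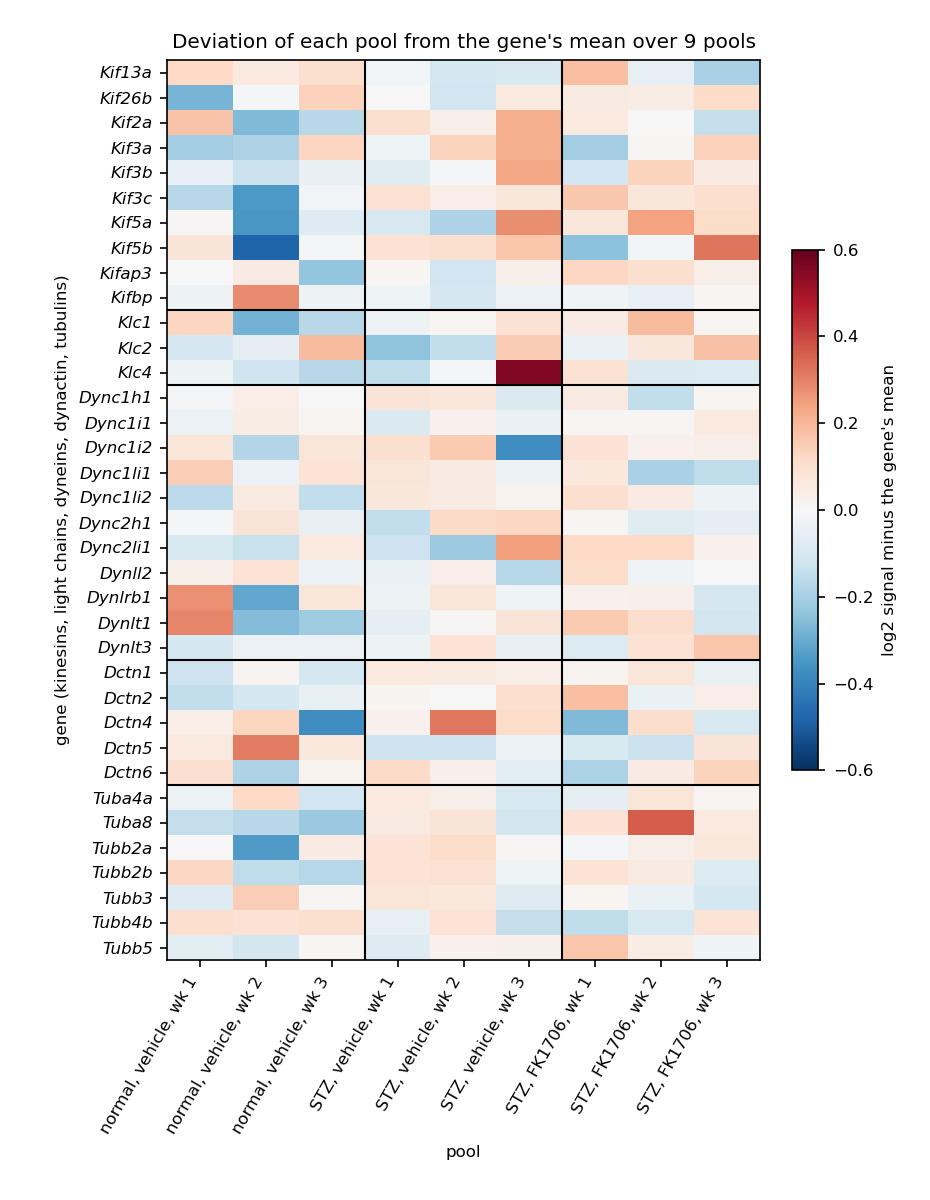
Deviation of each pool from the gene's mean over the 9 pools, in log2 units between -0.6 and 0.6, for the 36 genes in rows by class and the pools in columns. The column of the normal pool of week 2 is low for Kif5b, Klc1, Tubb2a and Dynlrb1 and high for Dctn5 and Kifbp.

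Weeks were compared over all 3 groups, with group as a factor. All 36 intervals lay inside a 1.5-fold change for both steps, against 92% of all genes for week 2 against week 1 and 87.8% for week 3 against week 2. Week 2 against week 1 gave 0 of 36 genes called, against 0.0143% of all genes, with 2 of 36 against 5.79% at an unadjusted p under 0.05 (limma). These were Dync1li1, at -0.16 (SE 0.063, adjusted p 0.817), and Dctn4, at 0.25 (SE 0.111, adjusted p 0.838). All 3 week 2 pools were below all 3 week 1 pools for Dync1li1, 12.02 to 12.27 against 12.28 to 12.36, and for Kif2a, while 1 of 36 genes, Dctn4, had them all above. All genes gave 4.92% below and 6.05% above.

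Week 3 against week 2 gave 0 of 36 called, against 0.0143%, with 3 of 36 against 10.1% at an unadjusted p under 0.05 (limma). Klc2 was lowest in adjusted p of the 36. It measured 10.95, 10.86 and 11.07 at week 2 in normal, STZ vehicle and FK1706 pools and 11.19, 11.16 and 11.18 at week 3, so every week 3 pool was above every week 2 pool. The difference was 0.22 (SE 0.069, limma adjusted p 0.362). Dctn4 was -0.30 (SE 0.111, limma adjusted p 0.429), opposite in sign to its week 2 difference, and its second probe set gave -0.26 (SE 0.125). For week 2 against week 1 that second probe set gave -0.05 (SE 0.125), so the opposite signs of the 2 steps were seen with the brighter probe set only. Kif5b was 0.29 higher (SE 0.129, limma adjusted p 0.48), and 0.14 without the normal pool of week 2. Kif26b also had all week 3 pools above, so 2 of 36 genes did, against 6.28% of all genes, and Dync1li2 and Tuba4a had them all below, 2 of 36 against 7.55%.

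**Figure D5:**
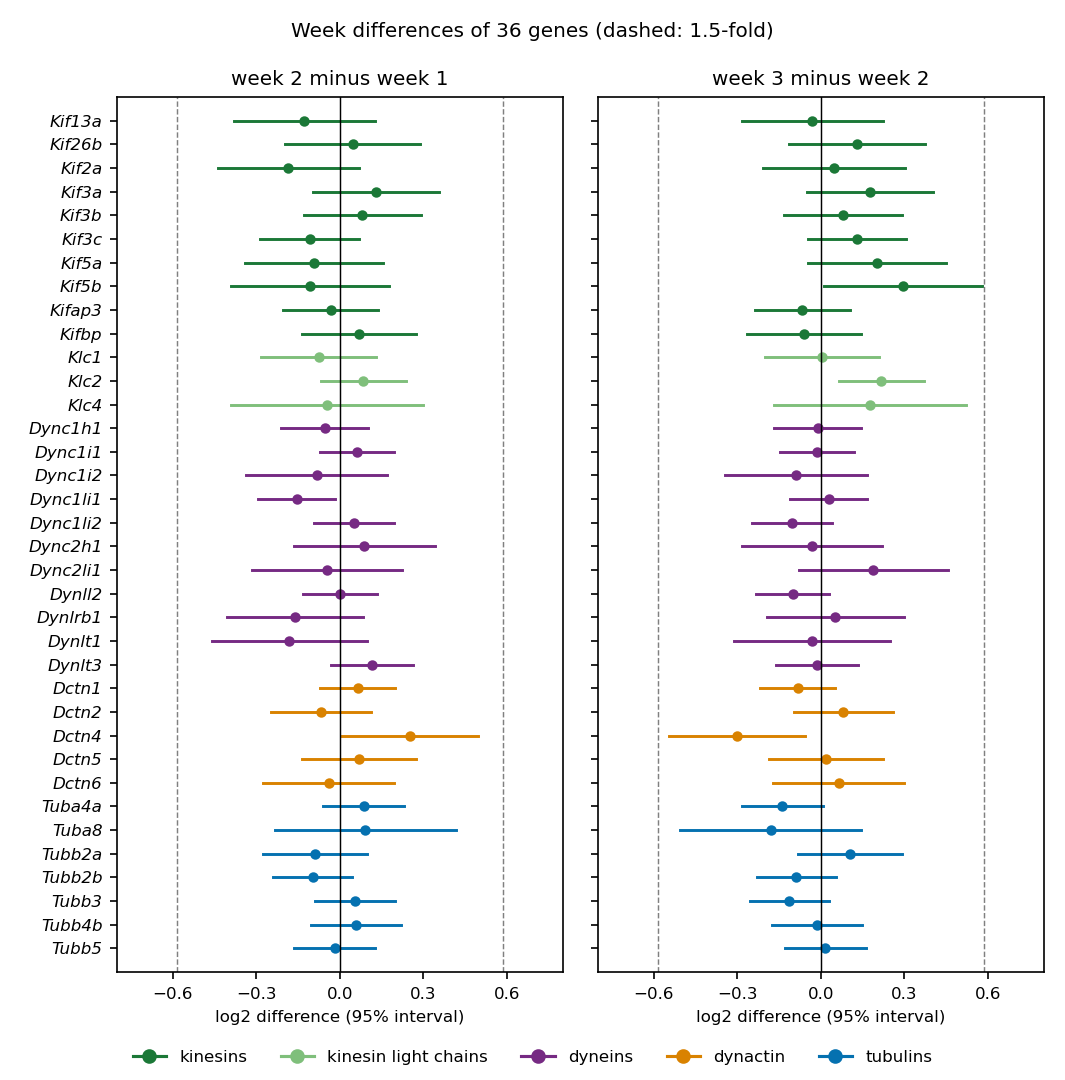
Log2 difference with its 95% interval for the 36 genes, week 2 against week 1 and week 3 against week 2, with dashed lines at a 1.5-fold change. Klc2 at 0.22 and Dctn4 at -0.30 stand farthest from 0 relative to their error in the later step.

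In log2 of the deposited signal the median of all genes was -0.22 for week 3 against week 2. On that scale 15 of 36 genes were called, all lower (limma with Benjamini-Hochberg adjustment). That was a larger share than the 23% of all genes called in either direction. The 15 were 7 dynein subunits, 4 tubulins, 2 dynactin subunits, Kifap3 and Kifbp. The same scale gave 1 of 36 genes called, Dync1li1, which was lower, for week 2 against week 1. Of all genes 2.4% were called there in either direction. The same gene was called lower for FK1706 against normal, against 1.52% of all genes in either direction. STZ against normal gave 0 of 36 called against 0.229%. For week 3 against week 2 the median of the 36 genes was -0.24, which is -0.01 relative to all genes, so their median lay close to that of the array as a whole on that scale.

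A different course over the weeks was tested by the linear slope in each group. No gene of the 36 passed, as no gene on the array did, with limma and Benjamini-Hochberg adjustment, and 0% of all genes were called. At an unadjusted p under 0.05 there were 2 of 36 genes against 3.91% for STZ against normal, 1 of 36 against 3.28% for FK1706 against vehicle, and 0 of 36 against 4.82% for FK1706 against normal. The slope of Klc4 differed by 0.42 log2 units per week between STZ and normal (SE 0.140) and -0.44 between FK1706 and vehicle (SE 0.140, both adjusted p 0.999), and the STZ pool of week 3 at 9.32, its highest value, enters both. The slope of Dynlt1 differed by 0.32 per week between STZ and normal pools (SE 0.138, adjusted p 0.999). It measured 9.70, 9.14 and 9.19 in normal pools and 9.35, 9.41 and 9.48 in STZ pools given vehicle, with its highest value in the normal pool of week 1.

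Genes that work with the motors were read from lists drawn up with earlier results of these data known. No gene of the 3 lists passed the test in any comparison. Of 27 microtubule-associated proteins 22 were measured and 21 tested, with 17 higher and 4 lower in STZ than in normal pools, a median of 0.10. An unadjusted p under 0.05 (limma) was reached by 3 of the 21, all higher, against 8.63% of all genes. These were Clip1, a plus-end tracker, at 0.52 (SE 0.196, adjusted p 0.485), Map2, which binds dendritic microtubules, at 0.44 (SE 0.175, adjusted p 0.531), and Dpysl3, a growth cone protein, at 0.29 (SE 0.126, adjusted p 0.556). FK1706 against normal gave 4 of the 21 at an unadjusted p under 0.05, all higher, against 8.18% of all genes. They were Dpysl3 at 0.32 (SE 0.126), Tppp, a tubulin-polymerising protein, at 0.31 (SE 0.137), Mapt, the tau protein that stabilises axonal microtubules, at 0.18 (SE 0.063, limma adjusted p 0.489), and Stmn2, a tubulin binder of injured axons, at 0.15 (SE 0.058, limma adjusted p 0.552).

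Of 29 adaptors and regulators of motors 24 were measured and 18 tested, with a median of 0.01 and 12 higher in STZ pools. Cdk5, a neuronal kinase, and Pafah1b1 (Lis1), a dynein activator, were each 0.18 higher and did not pass. They were the 2 of 18 at an unadjusted p under 0.05, against 8.63% of all genes. Pafah1b1 was -0.23 with FK1706 against vehicle (SE 0.081, limma adjusted p 0.999). In that comparison 1 of 18 had an unadjusted p under 0.05 (limma), against 3.13% of all genes. Of 21 factors that fold or modify tubulin 13 were measured and tested, with a median of -0.05. Agtpbp1, the enzyme that trims glutamates from tubulin tails, was 0.45 higher at week 3 than at week 2 (SE 0.098, limma adjusted p 0.216). In that step 2 of 13 had an unadjusted p under 0.05 (limma), both higher, against 10.1% of all genes. Tbcd, a tubulin folding factor, was 0.21 higher in STZ than in normal pools (SE 0.086, limma adjusted p 0.55), the 1 of 13 at an unadjusted p under 0.05 there against 8.63% of all genes. Tubg1, the gamma-tubulin that seeds microtubules, was 0.16 higher in STZ pools and did not pass.

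14 genes were below the filter and have no test. Kifc3 at 7.28 lay just below it, and Tuba8 at 7.37 just above. They include Kif1b, which carries synaptic vesicle precursors and mitochondria, Tubb6, and 6 kinesins of cell division, Kif15, Kif18b, Kif20a, Kif22, Kif2c and Kifc1, whose deposited signal was 5 to 181. Their range over the 9 pools was 0.56 to 1.79. The low value of Kif1b rests on 1 probe set, and further probe sets that carry Kif1b together with other symbols were not used.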

How the data were processed

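Signal was measured on Affymetrix rat arrays, 1 for each pool. The intensity values deposited by the authors are MAS5 signals on a linear scale, per the submitters' processing notes, with no version, and their trimmed means differ between arrays. No genome build is named in the sources used here. An offset of 18.7, the 10th percentile, was added, log2 taken, and the arrays quantile normalized. Each gene was represented by its brightest probe set, and those averaging at least log2 7.36, the 40th percentile over probe sets, were tested. Of 15923 probe sets, 57 were controls, 12783 had 1 symbol, 312 several and 2771 none. All 50 symbols matched the current RefSeq gene table. The tests used limma 3.58.1 in R 4.3.3 (lmFit and eBayes, trended prior). The model held a factor for group and a factor for week, leaving 4 residual degrees of freedom, and Benjamini-Hochberg adjustment over all 6989 genes. Slopes used a linear week in each group, with 3 residual degrees of freedom. Scripts were tested on simulated data, where recovery was required only for changes larger than any seen in the tested motor and tubulin genes. The number of arrays limits the precision.

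The rule named genes fixed by function, plus any with an unadjusted p under 0.05 and the same sign in all 3 weeks or groups. The other tested members, Kif13a, Kif26b, Kifbp, Klc4, Dync2h1 and Dync2li1, were named outside that rule. Members and lists were chosen with earlier results of these data known. Second probe sets were added as an alternative after seeing the data, and the normal pool of week 2 was singled out after its values were seen. Alternatives were the scaling, offset, filter, week block, variance prior, probe set rule and left-out arrays. Week pairs the arrays by design, since each group was sampled once in each week; deviations of same-week arrays correlated at 0.00987 to 0.325 over 9 pairs.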

Additional observations from a re-analysis of the deposited data

How the results depend on the processing

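None of the 36 genes was called under any alternative except in log2 of the deposited signal, where 0, 0, 1, 1 and 15 were called for STZ against normal, FK1706 against vehicle, FK1706 against normal, week 2 against week 1 and week 3 against week 2. The 1 gene was Dync1li1 in both cases. On that scale the medians of the 36 genes in the same order were -0.0501, -0.0529, -0.0935, -0.195 and -0.235, against 0.05, 0.02, 0.07, -0.03 and -0.00 after quantile normalization, while the medians of all genes were -0.10, -0.07, -0.17, -0.20 and -0.22. The share of the 36 genes that were higher was 15, 9, 4, 1 and 1 of 36 there, against 25, 19, 26, 16 and 18. Scaling to a common trimmed mean gave 0.0116 for week 2 against week 1, no filter gave 0.0258 for FK1706 against normal, and the mean of all probe sets gave -0.0210 for FK1706 against vehicle. Leaving out week 2 in every group gave 0.0244 for FK1706 against normal.

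Arrays were left out 1 at a time and, for the group comparisons, also 1 week at a time. The medians were then 0.0397 to 0.0982, 0.00212 to 0.0293, 0.0221 to 0.103, -0.0265 to 0.0208 and -0.0220 to 0.0356 in that order, with 0 of the 36 genes called each time. With no replicate block, that is, without the pairing by week, 0 of the 36 genes were called in each comparison. Over all genes the count called was 0 to 16 for STZ against normal (7 as reported), 0 to 106 for FK1706 against normal (1), 0 to 168 for week 2 against week 1 (1) and 0 to 1605 for week 3 against week 2 (1), with the highest counts on the deposited scale. Slopes gave 0 under all 6 alternatives. Over genes and alternatives, a single gene's difference stayed within 1 SE of the reported value in 3209 cases, moved by more without being called in 323, and was called in 17, all of them on the deposited scale.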

Other observations

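The 14 genes below the filter had deposited signals of 3.8 to 190.6, beside an offset of 18.7. They were not tested in the report. Kif15, a kinesin of the mitotic spindle, measured 6.12, 6.19 and 5.83 log2 units in the normal pools of weeks 1 to 3, 5.46, 4.62 and 5.53 in STZ pools given vehicle and 4.93, 4.85 and 5.78 with FK1706. The normal pools were all above the pools of both STZ groups. Its deposited signal was at most 65.1, and it was picked after its values were seen. Among all tested genes, 6.95% had all STZ pools given vehicle below all normal pools, and 6.08% had all FK1706 pools below them. Kif15 is outside that set, and no such share was taken over genes below the filter. The other kinesins of cell division differed in sign between STZ and normal pools. They gave 0.24 for Kif2c, 0.05 for Kif18b, -0.03 for Kif22, -0.46 for Kifc1 and -0.74 for Kif20a. A second Kif2c probe set, also below the filter, gave -0.69. Kifc1 also had all STZ pools given vehicle below all normal pools, 6.27 to 6.88 against 7.05 to 7.16. So did the light chain Klc3, likewise below the filter, at 6.56 to 6.63 against 6.65 to 6.81. The FK1706 pools of both genes overlapped the normal pools. Of 10 markers of dividing cells 9 were measured, 6 of them below the filter and none at 0 in all 9 pools. Their summed signal was 1028 to 1076 in normal pools, 809 to 950 in STZ pools given vehicle and 778 to 1137 with FK1706. Of the 3 dividing-cell markers above the filter, Ccnb1 and Plk1 differed by 0.03 and 0.06 between STZ and normal pools and Ube2c by -0.22, with none called (limma) and 0 at an unadjusted p under 0.05. The part of these markers in the Kif15 values was not tested.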
